A study of Mus musculus with 6 samples.

Results

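Mecom, Prdm16, Hlf, Meis1, Mllt3, Fgd5 and Myct1 are genes known for their activity in long-term haematopoietic stem cells, the cells that rebuild blood over a lifetime. The 7 genes were taken by name, through probe sets that the platform annotation assigned to exactly 1 gene. They held 108 of the 212097 probe sets with 1 gene, in a table of 241576. All 7 were measured, and 87 of their 108 probe sets were bright enough to be tested.

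The cells were stem cells sorted from mouse bone marrow and labelled KLSCD34-, a gate for c-Kit and Sca-1 on cells without lineage markers or surface CD34. The 6 arrays were 3 labelled control and 3 labelled Beta-catenin, from mice with a floxed beta-catenin gene and the vav-Cre transgene, called floxed arrays here. Vav-Cre drives recombination across blood-forming cells rather than in stem cells alone. The alleles of the control mice, the age and sex of the animals and any pooling are not given in the labels, so p-values speak only of the spread among these arrays, part of which may be technical. The comparison asks whether the regulators of long-term stem cells differ in level when beta-catenin, the co-activator of canonical Wnt signalling, is targeted.

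As background, Mecom and Prdm16 are related zinc finger proteins of the PRDM family, and stem cells are lost in mice without either. Hlf is a transcription factor of the PAR bZIP family whose expression marks stem cells. Meis1 is a homeodomain protein that binds DNA with HOX partners. Mllt3, also called AF9, reads acylated histones and recruits the machinery of transcription elongation. Fgd5 activates the small GTPase Cdc42 and is used as a reporter of stem cells, and Myct1 is a membrane protein of stem cells and endothelium.

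Beta-catenin has no DNA-binding domain and reaches its targets through TCF/LEF factors, so the promoters of the members were searched for the core of the TCF/LEF motif. RefSeq promoter windows, each from 250 bases before to 50 bases after a transcription start on GRCm38.p6, matched all 7 genes and gave 9 windows, with 2 each for Mecom and Mllt3. The core CTTTGA, on either strand, was found in 1 of the 9, against 16.0% of 32851 windows of that length. That window belongs to a Mecom start on the minus strand of chromosome 3. Its upstream part, chr3:30509760-30510009, is shown because it is the window of a member with the core, here in capitals as it reads on the reverse strand:

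Mecom upstream: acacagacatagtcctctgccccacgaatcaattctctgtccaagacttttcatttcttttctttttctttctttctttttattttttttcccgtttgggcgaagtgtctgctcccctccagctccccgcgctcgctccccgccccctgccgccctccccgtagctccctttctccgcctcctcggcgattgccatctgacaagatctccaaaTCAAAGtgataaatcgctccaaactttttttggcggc

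The first base of the core lies 37 bases before the start. A match is a description of the letters and not a binding site. The MEIS motif TGACAG, the letters that MEIS homeodomain proteins prefer, was found in 3 of the 9 windows, against 19.2% of all windows. These sites, each shown with 8 bases to either side and the motif or its reverse complement in capitals, were in the second Mecom window (chr3:30013277-30013298), the second Mllt3 window (chr4:87806360-87806381) and the Fgd5 window (chr6:91978731-91978752):

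Mecom, second window: ggaggctgCTGTCActttaaaa
Mllt3, second window: tgtgtttgCTGTCAtttaaact
Fgd5: tcggtctcTGACAGcacagaaa

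The motif TTACGTA, a core of the site of PAR bZIP factors such as Hlf, was found in 0 of the 9 windows and in 0.475% of all. The 2 PRDM genes shared sequence at their starts. The first Mecom window and the Prdm16 window held the same run of 24 bases, from base 27 after the start in Mecom (chr3:30509710-30509733) and from base 10 in Prdm16 (chr4:154636841-154636864). Both stretches are shown with the 6 bases before the shared run, which is in capitals:

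Mecom: tctaacGCGCATGTGCGAAGGTGTCCAAAC
Prdm16: ctctgtGCGCATGTGCGAAGGTGTCCAAAC

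No other window in the table held this run, and the next longest run shared by windows of different members had 12 bases. The run in Mecom ends at the last base of its window, so the shared stretch may be longer.

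The values are log2 expression levels as the authors deposited them. Without detection calls, 1210 probe sets of olfactory receptor genes, which are not known to be active in blood cells, served as a reference for dim signal. Their median was 4.76 log2 and their 95th percentile 6.43 log2. Of the 108 probe sets of the members, 102 had a mean above that percentile. Ctnnb1, the targeted gene, passed on 5 of its 16 tested probe sets, with log2 differences from −6.90 to −2.51 (limma adjusted p from 3.25e-06 to 0.000684). Over all genes, control arrays correlated with each other at 0.880 to 0.934 and floxed arrays at 0.962 to 0.972. These correlations are across genes, which are not independent replicates.

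The signal of the members ran from below the middle to near the top of the genes tested. A gene value was the median of a gene's tested probe sets, and its place was taken among the 14586 genes tested. Hlf stood at percentile 98.1 and Meis1 at 96.7. Myct1 stood at 77.4, Mecom at 71.1 and Mllt3 at 70.1, and these neighbours overlapped in their values over the arrays. Prdm16 stood at 50.4 and Fgd5 at 36.7. Probe sets differ in how strongly they respond, so this order describes signal and does not rank transcript abundance. The places were steady for the bright members, from 97.6 to 98.3 for Hlf and from 95.9 to 97.2 for Meis1 over the 6 arrays. They moved more for Mllt3, from 60.1 to 74.7, for Prdm16, from 41.7 to 58.0, and for Fgd5, from 30.1 to 41.3.

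**Figure D1:**
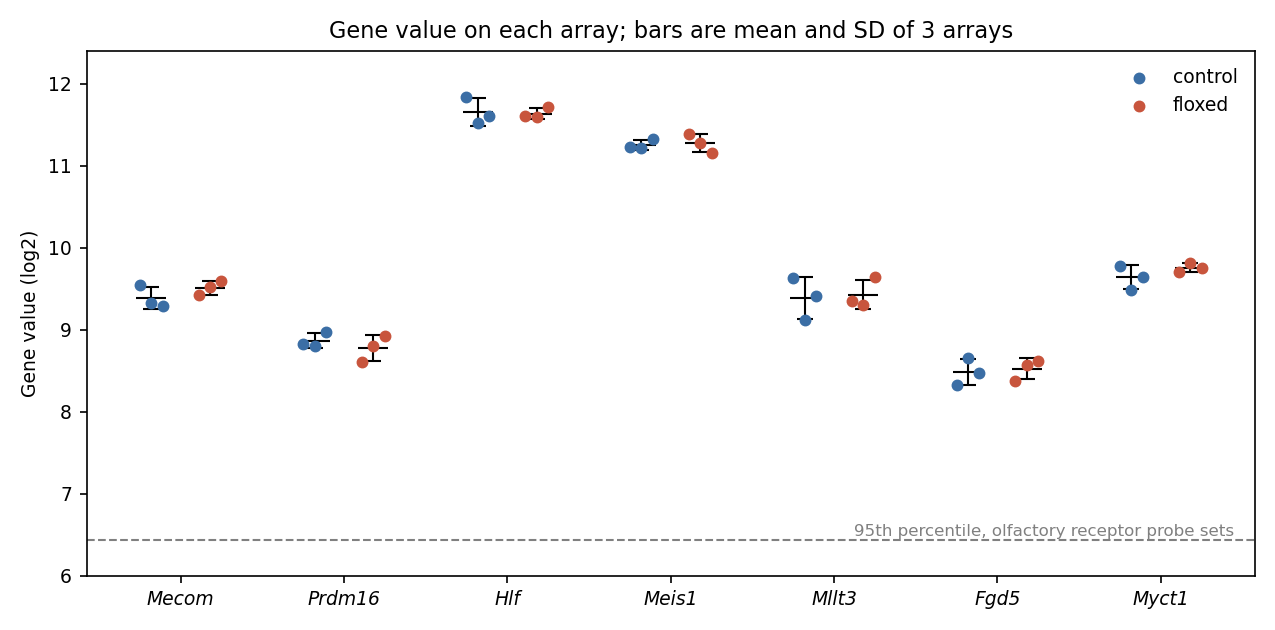
Gene value (log2) of each member on each array, controls in blue and floxed arrays in red, with the mean and SD of 3 arrays as black bars and the 95th percentile of olfactory receptor probe sets (6.43 log2) as a dashed line. Control and floxed points overlap for all 7 genes, and Hlf and Meis1 stand above 11 log2.

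No member differed between floxed and control arrays past the threshold, and the values of the groups overlapped for all 7. In limma, 0 of 7 members passed at an adjusted p under 0.05, and 0 of 7 had an unadjusted p under 0.05. Over all 14586 genes, 0 passed (0%), 540 (3.70%) had an unadjusted p under 0.05 in limma, and 1231 (8.44%) had groups that did not overlap. The targeted gene Ctnnb1 was thus not called by its gene value either, although 5 of its 16 tested probe sets passed. The log2 differences of the members, floxed minus control, ran from −0.09 to 0.12 with a median of 0.04, against 0.02 over all genes. Of the 7, 5 were on the higher and 2 on the lower side, where 54.2% of all genes were on the higher side.

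The 95% confidence intervals give the range of differences in a gene value that the arrays leave plausible, and are not a limit of detection. A gene value is a median over probe sets, so it can miss a change in part of a gene. Across the 7 members the far end of the interval lay between 0.26 log2 for Meis1 and 0.43 log2 for Mecom, which is 1.20-fold and 1.35-fold. A change of 1.5-fold in either direction lay outside the interval of each of the 7 in this setting. Over the alternatives 1 of 112 such intervals reached 1.5-fold, that of Prdm16 with the filter at the 75th percentile (−0.36, SE 0.19, 95% confidence interval −0.79 to 0.071), which extends to 1.73-fold. The typical interval over all genes reached 0.39 log2 to either side.

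Among the transcription factors, Mecom, which supports stem cell self-renewal, was at 9.54, 9.32 and 9.29 log2 in controls and 9.42, 9.52 and 9.59 in floxed arrays. All 3 floxed values lay above the control mean, and control replicate 1 lay above 2 of them. The means were 9.39 ± 0.14 (SD, n = 3) and 9.51 ± 0.09 (SD, n = 3). The log2 difference was 0.12 (SE 0.14, 95% confidence interval −0.19 to 0.43, limma adjusted p = 0.999).

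Prdm16, its relative, was at 8.83, 8.80 and 8.97 log2 in controls and 8.60, 8.80 and 8.93 in floxed arrays. Floxed replicate 1 was the lowest of the 6 and control replicate 3 the highest. Floxed minus control was −0.09 log2 (SE 0.15, 95% confidence interval −0.42 to 0.25, limma adjusted p = 0.999).

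Hlf, the PAR bZIP factor, was at 11.84, 11.52 and 11.60 log2 in controls and 11.60, 11.59 and 11.71 in floxed arrays. The floxed values lay inside the range of the controls. This gave a log2 difference of −0.02 (SE 0.11, 95% confidence interval −0.27 to 0.23, limma adjusted p = 0.999).

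Meis1, the partner of HOX proteins, was at 11.23, 11.22 and 11.32 log2 in controls and 11.39, 11.28 and 11.16 in floxed arrays. The highest and the lowest of the 6 values were both floxed arrays. The difference came to 0.02 log2 (SE 0.11, 95% confidence interval −0.22 to 0.26, limma adjusted p = 0.999).

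Mllt3, the histone reader, had the widest spread of the members, at 9.63, 9.12 and 9.41 log2 in controls and 9.34, 9.30 and 9.64 in floxed arrays. Control replicate 1 and floxed replicate 3 were high together and control replicate 2 was low. In log2 terms the difference was 0.04 (SE 0.17, 95% confidence interval −0.33 to 0.41, limma adjusted p = 0.999).

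Fgd5, the Cdc42 activator, was at 8.33, 8.65 and 8.48 log2 in controls and 8.38, 8.57 and 8.62 in floxed arrays, so the floxed values lay inside the range of the controls. The log2 difference was 0.04 (SE 0.16, 95% confidence interval −0.32 to 0.39, limma adjusted p = 0.999).

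Myct1, the membrane protein, was at 9.78, 9.49 and 9.64 log2 in controls and 9.70, 9.81 and 9.75 in floxed arrays. All 3 floxed values lay above the control mean, and control replicate 1 lay above 2 of them, as for Mecom. Floxed minus control was 0.12 log2 (SE 0.13, 95% confidence interval −0.18 to 0.42, limma adjusted p = 0.999).

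**Figure D2:**
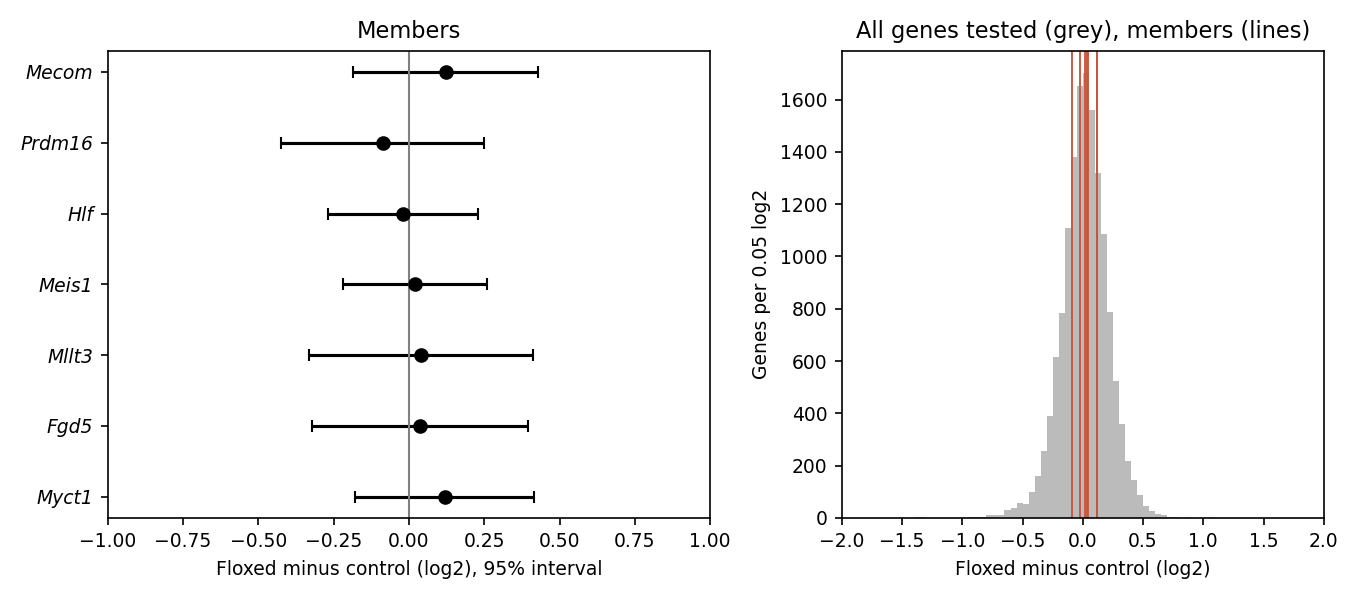
Left, log2 difference of each member, floxed minus control, with its 95% confidence interval from limma. Right, the same difference for all 14586 genes tested in bins of 0.05 log2, with the members as red lines; the members run from −0.09 to 0.12 and stand in the middle of the distribution.

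The SD of a gene value over all arrays was 0.08 log2 for Meis1 and 0.20 log2 for Mllt3, with the other 5 between them, and the median over all genes tested was 0.20 log2. The members did not vary together as 1 block. Of the 21 pairs, 11 had a positive correlation over the 6 arrays, from −0.55 between Hlf and Fgd5 to 0.91 between Hlf and Mllt3. Myct1 and Mecom had 0.81. All these values share the same arrays and are descriptions.

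The genes most like each member in their pattern over the arrays were taken among the 7293 other genes whose SD reached the median, by Pearson correlation over 6 arrays. Hlf was nearest to Gulp1 (0.994) and Ly6a (0.988), the gene of the gate antigen Sca-1. Ly6a, like Hlf, was highest on control replicate 1 and on floxed replicate 3 next. Mecom was nearest to Tgfbi (0.991) and Uqcc2 (0.990), Fgd5 to Insyn1 (0.997) and Krt23 (0.996), and Myct1 to Alg1 (0.979) and Gm8681 (0.972). Prdm16 was nearest to Ccdc63 (0.979) and Ggn (0.973), Meis1 to Cdh11 (0.979) and Rnu2-10 (0.964), and Mllt3 to Hdgfl3 (0.972) and Ptprz1 (0.958). With 6 arrays such values are common: from 19 genes for Meis1 to 196 for Fgd5 had a correlation above 0.9.

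Probe sets along a gene can show a change in part of it, as they did for Ctnnb1, so each was also tested on its own. Among the 87 tested probe sets of the members, 0 passed (smallest limma adjusted p = 0.980), against 5 of 110361 over all (0.00453%). Unadjusted p under 0.05 was found for 3 of the 87 (3.45%), against 4.38% of all. The groups did not overlap on 8 of the 87 (9.20%), against 9.33% of all, so both shares were near the background. The probe sets were higher in floxed arrays for 48 of 87 (55.2%), where 58.9% of all were. For 85 of the 87 the log2 difference was within 0.5 of 0. The correlation between control and floxed means over all probe sets of a gene was 0.998 for Myct1 (6 probe sets), 0.997 for Meis1 (17), 0.996 for Hlf (8), 0.995 for Mecom (19), 0.987 for Mllt3 (18), 0.955 for Prdm16 (18) and 0.930 for Fgd5 (22). Over the tested probe sets alone it was 0.844 for Prdm16 (13) and 0.912 for Fgd5 (13). Both means come from the same probes, so such values are descriptions and do not show that no stretch of a gene changed.

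**Figure D3:**
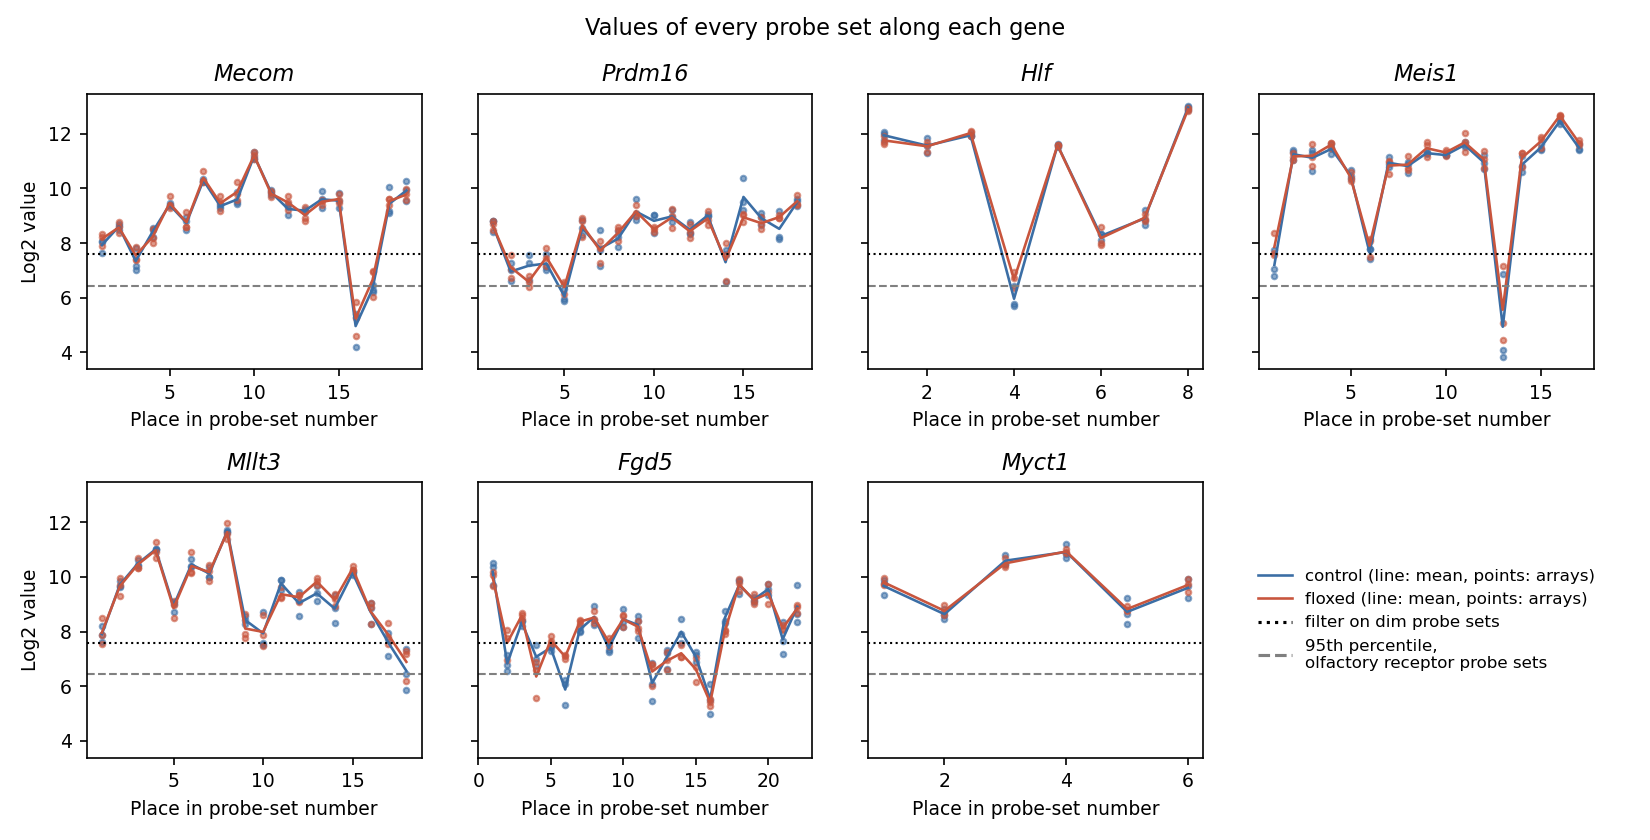
Log2 value of every probe set of each member in the order of probe-set number, controls in blue and floxed arrays in red, lines for group means and points for arrays. The dotted line is the filter on dim probe sets (7.60 log2) and the dashed line the 95th percentile of olfactory receptor probe sets (6.43 log2). The group means lie within 0.5 log2 of each other at 85 of the 87 tested probe sets, and dim probe sets stand between bright ones in Mecom, Hlf and Meis1.

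Limma's diffSplice test, which asks whether the probe sets of a gene share 1 difference, called 0 of the 7 members (adjusted p = 1 for each), against 2 of 11831 genes (0.0169%). Its unadjusted p was under 0.05 for 0 of the 7, against 1.52% of all, and the smallest was 0.0999 for Fgd5. No exon was assigned to any probe set here, so a place is only the order of the probe-set number within a gene.

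Mecom had 19 probe sets, and 16 were tested, with log2 differences from −0.19 at place 4 to 0.28 at place 9, 10 higher and 6 lower. Place 9, which also had the smallest p, was at 9.89, 9.41 and 9.49 log2 in controls and 9.81, 9.57 and 10.25 in floxed arrays. Floxed replicate 3 was the highest and the groups overlapped (SE 0.22, limma adjusted p = 0.980). The difference at place 9 was 0.091 without floxed replicate 3, and that at place 4 was −0.076 without floxed replicate 1. The signal was highest at place 10, with a mean of 11.20 log2. At places 16 and 17 it was 5.10 and 6.48 log2, between places 15 and 18 at 9.58 and 9.49 log2. Place 16 was within the range of the olfactory receptor probe sets in both groups, at 5.30, 5.38 and 4.19 log2 in controls and 5.26, 5.84 and 4.61 in floxed arrays. The dip was thus present in both groups.

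Prdm16 had 18 probe sets and 13 were tested, 5 higher and 8 lower, from −0.75 to 0.43. The lowest was place 15, at 9.20, 9.49 and 10.38 log2 in controls and 9.05, 8.76 and 9.01 in floxed arrays. Each floxed value lay below each control, and control replicate 3 stood above the rest. This gave a log2 difference of −0.75 (SE 0.28, limma adjusted p = 0.980), and −0.40 without control replicate 3. The highest was place 17 with 0.43, where the groups overlapped, and it was 0.25 without control replicate 2 and 0.75 without control replicate 1. Places 2 to 5 were dim, with means from 6.22 to 7.36 log2, and so was place 14 at 7.34 log2.

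Hlf had 8 probe sets and 7 were tested, 2 higher and 5 lower, from −0.19 at place 1 to 0.08 at place 3. Place 8 was its brightest, at 12.93 log2 in the mean. Place 4 was dim, at 5.76, 5.70 and 6.41 log2 in controls and 6.92, 6.71 and 6.35 in floxed arrays, while its neighbours stood above 11.

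Meis1 had 17 probe sets and 15 were tested, 12 higher and 3 lower, from −0.11 at place 7 to 0.25 at place 6. Without floxed replicate 1 place 7 turned to 0.039, and without floxed replicate 2 place 6 had 0.12. The smallest p was at place 16, at 12.37, 12.48 and 12.54 log2 in controls and 12.70, 12.66 and 12.64 in floxed arrays. Each floxed value lay above each control. The difference came to 0.20 log2 (SE 0.10, limma adjusted p = 0.980). The median over the 15 was 0.11.

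Mllt3 had 18 probe sets and 17 were tested, 9 higher and 8 lower, from −0.39 at place 11 to 0.43 at place 13. Place 13 was at 9.66, 9.12 and 9.41 log2 in controls and 9.95, 9.70 and 9.83 in floxed arrays, which did not overlap. Its log2 difference had an SE of 0.19 (limma adjusted p = 0.980).

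Fgd5 had 22 probe sets, of which 9 were dim, the most of any member, and 13 were tested, 5 higher and 8 lower. The lowest was place 14, at 7.91, 7.58 and 8.48 log2 in controls and 7.06, 7.05 and 7.50 in floxed arrays, with no overlap. In log2 terms the difference was −0.78 (SE 0.30, limma adjusted p = 0.980). It was −0.54 without control replicate 3 and −0.99 without control replicate 2. Place 14 only just reached the filter, with a mean of 7.5961 against 7.5959 log2. All its floxed values lay below the filter, so it was tested only because its controls were higher. The highest was place 21 with 0.41, where the groups overlapped, and it was 0.13 without control replicate 3 and 0.71 without control replicate 1. Place 6, too dim for the filter and named here after its values were seen, was at 5.31, 6.23 and 6.09 log2 in controls and 7.14, 7.10 and 6.99 in floxed arrays. With no filter its log2 difference was 1.20 (SE 0.33, limma adjusted p = 0.987). The control values lay at or below the 95th percentile of olfactory receptor probe sets, so this difference is not a measured fold.

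Myct1 had 6 probe sets, all tested, 5 higher and 1 lower, from −0.10 at place 3 to 0.13 at place 1, which had the smallest p (limma adjusted p = 0.986). Each turned when 1 array was left out, place 3 to 0.017 without control replicate 1 and place 1 to −0.026 without control replicate 3. The 6 means lay between 8.70 and 10.92 log2.

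Genes related to the members by family, complex or known link gave no call either. Of 42 measured partners and relatives, 21 were on each side and 0 passed in limma, with a median log2 difference of 0.004 against 0.02 over all genes. Unadjusted p under 0.05 was found for 2 of the 42 in limma, where 3.70% of all genes had it. Hoxa9, a HOX partner of Meis1, was at 10.23, 9.95 and 10.27 log2 in controls and 10.55, 10.58 and 10.44 in floxed arrays. Each floxed value lay above each control, with a log2 difference of 0.37 (SE 0.13, limma adjusted p = 0.999). With array weights Hoxa9 had 0.53 and passed (limma adjusted p = 0.0262, and 0.0262 to 0.9998 over 15 alternatives). In that setting 404 of all 14586 genes passed, against 0 without weights. Epas1, the hypoxia factor HIF-2 alpha, which Meis1 is reported to regulate, was at 8.31, 8.39 and 8.81 log2 in controls and 7.98, 7.42 and 8.20 in floxed arrays. Its log2 difference was −0.64 (SE 0.23, limma adjusted p = 0.999), and with no filter it turned to 0.21. With the filter at the 75th percentile Epas1 had −0.012, and without floxed replicate 2 it had −0.28. Cdk9, the kinase of the elongation machinery that Mllt3 recruits, had 0.30 (SE 0.16), and Fgd4, a relative of Fgd5, had 0.33 (SE 0.18), both with overlapping groups and not passing. Without control replicate 3 these were 0.16 for Cdk9 and 0.18 for Fgd4, and Fgd4 had 0.50 without control replicate 1. Gata2, a target of Mecom in stem cells, had −0.0040, and Hif1a had −0.023. Those 2 were picked as textbook examples after their values were seen. Pknox2 and Meis2 were too dim to be tested.

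Other genes known from long-term stem cells also lay on both sides. Of 27 measured, 13 were higher and 14 lower, 0 passed in limma, and the median log2 difference was −0.01. In limma 1 of the 27 had an unadjusted p under 0.05, where 3.70% of all genes had it. Hoxb4, a homeobox gene that expands stem cells when overexpressed, was at 8.17, 7.96 and 7.83 log2 in controls and 8.48, 8.60 and 8.30 in floxed arrays. Its log2 difference was 0.48 (SE 0.17, limma adjusted p = 0.999). Ctnnal1, alpha-catulin, whose reporter marks stem cells, had 0.31 (SE 0.19). Gfi1b, a transcriptional repressor active in erythroid and megakaryocyte cells, had −0.32 (SE 0.20). The fibroblast growth factor receptor gene Fgfr3 had −0.33 (SE 0.22) and turned to 0.42 with the filter at the 75th percentile. None of these 4 passed. Leaving out 1 array took Fgfr3 to −0.083 (without control replicate 3), Ctnnal1 to 0.15 (without control replicate 3) or 0.57 (without control replicate 1), and Gfi1b to −0.18 (without floxed replicate 1) or −0.57 (without floxed replicate 3).

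**Figure D4:**
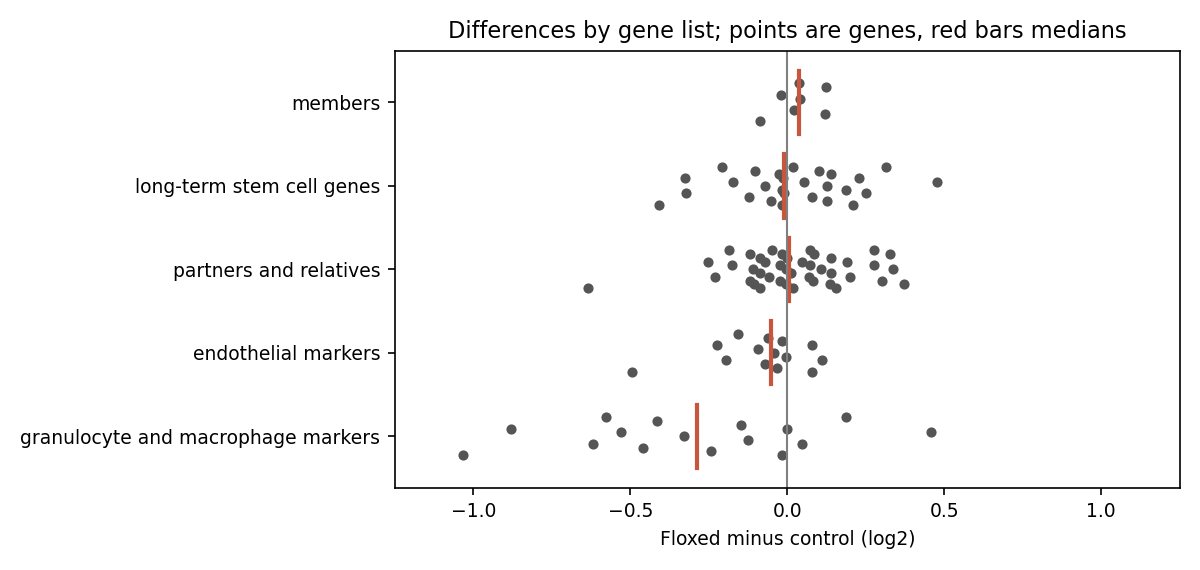
Log2 difference, floxed minus control, of each measured gene in 5 lists, with the median of each list as a red bar. The medians of the members (0.04), long-term stem cell genes (−0.01) and partners (0.004) stand near 0, and that of granulocyte and macrophage markers at −0.29.

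The cell type of the label was set against its markers. The gate genes Kit (11.84 control, 11.73 floxed) and Ly6a (11.29 and 11.28) had high log2 values in both groups. Cd34, whose surface protein the gate excludes, was at 12.68 and 12.65 log2, and the gate acts on protein, so these RNA values do not check it. Progenitor markers lay on both sides, with 3 of 8 higher, Cd27 at −0.54 (SE 0.16), Gpr171 at −0.49 (SE 0.19), Cd48 at 0.31 (SE 0.15) and Dntt at 0.08 (SE 0.12), none passing in limma. Granulocyte and macrophage markers were lower in floxed arrays for 13 of 16, with a median of −0.29. Their mean deviations were 0.34, 0.49 and −0.39 log2 in controls and −0.38, −0.31 and 0.25 in floxed arrays. The smallest p were those of the granule protein genes Ngp (−0.88, SE 0.28), Mmp8 (−1.03, SE 0.36), Lcn2 (−0.62, SE 0.33) and Ltf (−0.58, SE 0.32), each with overlapping groups, and the brightest was Mpo at 11.83 log2. None passed in limma, while with array weights these 4 and Cd27 did. In that setting 404 of all 14586 genes passed, against 0 without weights. Erythroid and megakaryocyte markers were lower for 9 of 10, with a median of −0.12, led by Epor (−0.48, SE 0.21), Alas2 (−0.40, SE 0.18), Gp9 (−0.20, SE 0.14) and Itga2b (0.21, SE 0.15), with Car1 the brightest at 13.03 log2. None of these passed, and Epor did with array weights, as 1 of the same 404 genes. B cell markers spread most among the controls, from 0.76 to −0.82 log2, with 4 of 9 higher and Cd79b the brightest at 10.17 log2. Vpreb1 (−0.14), Cr2 (−0.15), Igll1 (−0.19) and Pax5 (0.11) had the smallest p of these and none passed. Of the T and NK markers 4 of 5 were lower, with Cd4 at −0.63 (SE 0.28), Prf1 at −0.43 (SE 0.25), Cd3e at −0.17 (SE 0.19) and Nkg7, the brightest, at 0.07 (SE 0.19), none passing.

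Hlf, Mecom, Fgd5 and Myct1 are also expressed in endothelium. Of 14 endothelial markers, 11 were lower in floxed arrays, with a median of −0.05, by their tested probe sets. Over all their probe sets, dim ones included, the list mean was 7.17 to 7.27 log2 in controls and 6.99 to 7.18 log2 in floxed arrays. By that measure, 7 of the 14 did not exceed the 95th percentile of olfactory receptor probe sets, among them Cdh5 and Kdr. The rest exceeded it, among them Emcn at 10.46, Pecam1 at 9.67 and Egfl7 at 9.51 log2. The brightest was Emcn, at 10.54 log2 in the mean by its tested probe sets. The smallest p were those of Cldn5 (−0.50, SE 0.26), Plvap (−0.22, SE 0.19), Stab2 (−0.20, SE 0.18) and Ptprb (−0.16, SE 0.22), and none passed. The part of any other cell type in the values of the members was not tested, and in RNA from sorted cells fewer cells of a type and less RNA per cell cannot be told apart. Over the members, the mean deviations were 0.06, −0.10 and −0.01 log2 in controls and −0.05, 0.01 and 0.09 in floxed arrays, which overlapped.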

How the data were processed

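The table held the authors' deposited log2 values for 241576 probe sets, with base and scale read from the values (2.44 to 14.53). MAS5 is named in the submitters' processing notes with no role, and other steps are not given in the sources used here. Array medians lay between 7.56 and 7.65, and nothing further was normalized. The platform annotation gave 1 gene to 212097 probe sets. Old symbols were replaced by those of RefSeq for GRCm38.p6 (17621 current, 2742 updated, 53 unmatched). No probe set of the members was annotated to several genes.

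Probe sets were tested where their mean over 6 arrays reached the median, 7.60 log2, leaving 110361 probe sets with 1 gene and 14586 genes. A gene value was the median of its tested probe sets. The test, for genes and for probe sets, was that of limma 3.58.1 under R 4.3.3 (eBayes with a trend, two-sided, Benjamini-Hochberg over all features tested, threshold 0.05). A two-sided exact permutation test of 3 against 3 arrays cannot go below p = 0.1 and was not used. The number of arrays limits the precision, and limma's array weights, used in 1 alternative, ran from 0.270 (control replicate 1) to 3.37 (control replicate 2).

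In simulated data for 14586 genes with 200 changed and sizes mixed, 62% of changes of 1 log2 and 96% of 2 log2 were recovered, with 3.75% false calls. For diffSplice over 11831 genes, changes of 2 log2 in some probe sets were recovered at 100%. The share of false calls was 2.44% where probe sets of a gene had 1 SD, and 32.0% where each had its own, so its calls may be too many.

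The members and lists were chosen with earlier results of these data known. Named genes were the members, the genes of each list with the smallest p (up to 4), the brightest gene of each marker list, the nearest genes in pattern (2 per member), and of each member the probe sets with the smallest p and the lowest and highest difference. Probe sets given for their signal alone were picked after their values were seen. Alternatives changed the normalization (quantile, or equal medians), the filter (none, or the 75th percentile), the gene value (mean), the variance model (no trend, robust, or array weights) and the samples (each array left out). The replicate number was also tried as a block. A filter at the olfactory receptor level was added after the data were seen.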

Additional observations from a re-analysis of the deposited data

How the results depend on the processing

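No member passed under any of the 16 alternatives, over which member differences ran from −0.36 to 0.24 log2 and limma adjusted p from 0.186 to 0.9998. Of 112 such values, 94 kept their direction and 18 turned, to values from −0.092 to 0.13. Fgd5 turned to −0.0076 with quantile normalization, −0.034 with the 75th percentile filter, −0.064 with the mean of probe sets, −0.081 with array weights and −0.085 with the olfactory filter. Hlf turned to 0.076 with array weights, Meis1 to −0.0094 with quantile normalization and −0.011 once array medians were made equal, and Myct1 to −0.041 with the 75th percentile filter. Prdm16 turned to 0.10 with no filter and 0.13 with the olfactory filter. When 1 array was left out, the ranges were −0.013 to 0.12 for Fgd5, −0.088 to 0.073 for Hlf, −0.036 to 0.078 for Meis1 and −0.092 to 0.16 for Mllt3. Mecom kept its direction in all 16, from 0.03 to 0.20. Epas1 turned to 0.21 with no filter. Fgfr3 turned to 0.19 with no filter, 0.42 with the 75th percentile filter and 0.041 with the mean of probe sets. Of the markers, Cldn5 turned to 0.018, Cr2 to 0.067 and Prf1 to 0.12 with no filter, Cr2 to 0.19, Ly6a to 0.23 and Dntt to −0.0026 with array weights, and Cd34 to 0.043 and Nkg7 to −0.032 with the mean of probe sets. With 1 array left out Cr2 ran from −0.36 to 0.015, Igll1 from −0.66 to 0.19, Ly6a from −0.20 to 0.28, Nkg7 from −0.15 to 0.31, Pax5 from −0.15 to 0.32 and Vpreb1 from −0.28 to 0.060. The Prdm16 value with the 75th percentile filter, −0.36, compares with −0.09 at the median filter. The cause of these turns was not tested.

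Over all genes, calls numbered 2 with no filter, 1 with the mean of probe sets (Ctnnb1), 404 with array weights, 1 with the olfactory filter and 0 to 2 when 1 array was left out, the 2 without control replicate 1 (Rab9 and Rny1). Probe sets called were 0 with the 75th percentile filter and 4 to 5 with 1 array left out. In diffSplice 4 genes were called with no filter, 0 with the 75th percentile filter, 1 with the replicate block, and 1 to 264 with 1 array left out, 264 without control replicate 1. None of these calls was a member. The median of the members ran from −0.03 to 0.09, with every alternative within the spread between arrays.

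The replicate number gave deviations that correlated at 0.198, −0.004 and −0.243 between same-numbered arrays. The labels do not say whether same-numbered arrays were paired, and with 3 arrays per group these correlations cannot decide it. With the replicate block 0 genes were called and no other call changed but that of diffSplice. Dim probe sets, without detection calls, are the part that signal over background limits.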
